A study of Mus musculus with 28 samples.

Results

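The RNA of 8 subunits of neuronal voltage-gated sodium channels was followed across age, brain region and Nova1 genotype. The members were taken by gene symbol from the deposited tables and are the 5 pore-forming alpha subunits Scn1a, Scn2a1 (the files' name for Scn2a), Scn3a, Scn8a and Scn9a and the 3 beta subunits Scn2b, Scn3b and Scn4b, 8 of the 23038 genes listed. Bulk RNA-seq of polyadenylated RNA was made from mice of the BL6 background (C57BL/6J in the study's methods), in 28 libraries: embryonic midbrain (E18.5) from 6 wt/wt and 6 hu/hu animals, midbrain at postnatal day 21 (P21) from 4 of each Nova1 genotype, and cortex of the same age from 4 of each. Nova1 encodes a neuronal RNA-binding protein. In the hu/hu mice both alleles carry an edited codon that replaces isoleucine with the valine of modern humans, with silent changes that serve genotyping, and the wt/wt mice carry the unedited alleles. The substitution was made in the germ line with CRISPR/Cas9 and is therefore present in every cell that expresses Nova1, and no other allele or treatment was given for either group. The study used both sexes in equal numbers of pairs and compared hu/hu mice with wt/wt littermates. The comparison of genotypes asks whether the human form of the protein alters RNA levels, while age and region are contrasts between tissues of the same study.

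Voltage-gated sodium channels open when the membrane depolarizes and carry the inward current of the action potential. Each channel is built around an alpha subunit, which forms the pore and the voltage sensor, and associated beta subunits, which adjust gating and take part in cell adhesion and in placing the channel at the axon initial segment and the nodes of Ranvier. In the brain Scn3a is known as a mainly fetal form, Scn2a1 as the form of immature axons and of excitatory neurons, Scn8a as the form of mature initial segments and nodes, and Scn1a as a form of particular weight in inhibitory interneurons. Scn9a is best known from peripheral sensory and sympathetic neurons.

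Of the alpha members, 4 lie on mouse chromosome 2 of GRCm38 within 1177997 bases in the RefSeq annotation: Scn3a (chr2:65457118-65567591, − strand), Scn2a1 (chr2:65620764-65767447, + strand), Scn1a (chr2:66270781-66440837, − strand) and Scn9a (chr2:66480080-66635114, − strand). Scn8a (chr15:100869863-101045938, + strand) stands apart. The beta members lie on chromosome 9, where Scn2b (chr9:45117876-45130070, + strand) and Scn4b (chr9:45138624-45154155, + strand) are neighbours with 8553 bases between them, and Scn3b (chr9:40269216-40291618, + strand) is farther away. In the GENCODE annotation Scn2a1, Scn8a and Scn4b overlap no other gene, whereas the other members overlap between 1 and 3 annotated noncoding genes or pseudogenes, mostly on the opposite strand, whose reads could not be told apart if strand was not used in counting.

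Counts of the alpha members rest on genes that share coding sequence, and a read wholly within a shared stretch cannot by its own bases be assigned to 1 of them. The study sequenced both ends of the fragments, and a mate outside the stretch may tell the members apart. Over the whole coding sequence of the GENCODE transcripts, the longest exact run shared by a pair was 188 bases between Scn1a and Scn2a1, and 35 to 55 bases between Scn8a and any other alpha member. Of all stretches of 100 coding bases of Scn1a, 1.501% were also in Scn2a1 and 0.877% in Scn3a, and of those of Scn3a 3.22% were also in Scn9a. Scn8a shared no stretch of that length with any of the others. How the authors' counting treated reads that match more than 1 member is not given in the sources used here.

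The promoters of the neighbouring beta members are shown because both genes rose with age. The 250 bases before the annotated start, from RefSeq on GRCm38.p6, read as follows at chr9:45117626-45117875 for Scn2b and chr9:45138374-45138623 for Scn4b, both on the + strand, with CG pairs in capitals.
Scn2b: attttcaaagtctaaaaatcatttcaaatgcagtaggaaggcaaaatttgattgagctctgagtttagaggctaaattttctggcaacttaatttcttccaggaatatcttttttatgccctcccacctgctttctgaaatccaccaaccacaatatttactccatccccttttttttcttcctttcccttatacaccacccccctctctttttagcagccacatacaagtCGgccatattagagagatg
Scn4b: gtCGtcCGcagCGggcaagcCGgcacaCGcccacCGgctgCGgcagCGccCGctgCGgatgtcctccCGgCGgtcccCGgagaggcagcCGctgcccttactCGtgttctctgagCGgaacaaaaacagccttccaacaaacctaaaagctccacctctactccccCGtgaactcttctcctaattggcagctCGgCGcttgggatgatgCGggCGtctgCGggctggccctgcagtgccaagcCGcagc
Scn2b had 1 CG pair and a GC content of 38.4%, and Scn4b had 23 pairs and 66.0%. At least 1 pair stood in 92.1% and at least 23 in 13.3% of all 32851 windows of this length in the table, whose median was 6 pairs. In the windows given for 6 of the 8 members, the CG pairs ran from 1 in Scn2b to 30 in a window of Scn8a. The letters GGGCGG on either strand were in none of these 8 windows and in 32.7% of all windows. The letters TATAAA on either strand were in 1 of the 8 windows, a window within the gene body of Scn2a1, and in 12.4% of all windows. These matches describe the letters alone.

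Total counts per library ran from 18550922 to 45134998, and the 8 members together held 0.0881% to 0.139% of a library. Levels are given as TPM, a transcript's count per exon length scaled to the same sum in every library, so that genes can be compared per length. The labelled tissues were checked on marker genes. The summed TPM of 3 dopamine neuron markers was 69.2 to 94.3 in embryonic midbrain, 242 to 292 in that of P21 and 25.1 to 38.1 in cortex, and that of 3 cortical projection neuron markers was 15.6 to 23.3, 3.24 to 4.35 and 132 to 158 in the same order. The cortex libraries also held 579 to 716 TPM of 4 striatal neuron markers against 43.4 to 54.9 in P21 midbrain, and the P21 midbrain libraries held 327 to 419 TPM of 4 hypothalamic neuron markers against 1.49 to 32.9 in cortex. The 4 oligodendrocyte markers, all called higher with age, summed to 58.2 to 81.1 TPM at E18.5 and 18264 to 20584 TPM in P21 midbrain.

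The order of the members' levels turned over between E18.5 and P21. In E18.5 midbrain the mean TPM over 12 libraries was 128 ± 4.26 (SD) for Scn3b, 90.4 ± 4.98 for Scn2a1, 64.6 ± 5.61 for Scn3a, 27.0 ± 3.24 for Scn8a, 19.9 ± 1.12 for Scn9a, 16.8 ± 1.93 for Scn1a, 10.9 ± 0.932 for Scn2b and 0.697 ± 0.204 for Scn4b. Neighbours in this order did not overlap in range except Scn8a with Scn9a and Scn9a with Scn1a. Scn8a was nonetheless above Scn9a in 12 of 12 libraries, and Scn9a above Scn1a in 10 of 12.

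In P21 midbrain the mean TPM over 8 libraries was 166 ± 8.73 (SD) for Scn2b, 107 ± 10.3 for Scn4b, 81.7 ± 2.08 for Scn8a, 75.9 ± 3.45 for Scn1a, 72.7 ± 4.16 for Scn2a1, 30.2 ± 1.68 for Scn3b, 12.7 ± 0.918 for Scn3a and 5.60 ± 0.335 for Scn9a. The ranges of Scn8a, Scn1a and Scn2a1 met, with Scn8a above Scn1a in 8 of 8 libraries and Scn1a above Scn2a1 in 6 of 8. Scn3b, the highest member before birth, stood in the sixth place, and Scn4b had moved from last to the second place. In P21 cortex the order over 8 libraries began with Scn2b at 146 ± 5.40, Scn2a1 at 119.9 ± 5.96, Scn4b at 103 ± 8.28 and Scn8a at 93.7 ± 1.37 TPM. It ended with Scn3b at 54.0 ± 2.64, Scn1a at 30.6 ± 1.74, Scn3a at 11.7 ± 0.543 and Scn9a at 1.504 ± 0.212 TPM. Scn4b overlapped in range with its neighbours on both sides in cortex, and was above Scn8a in 6 of 8 libraries.

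**Figure D1:**
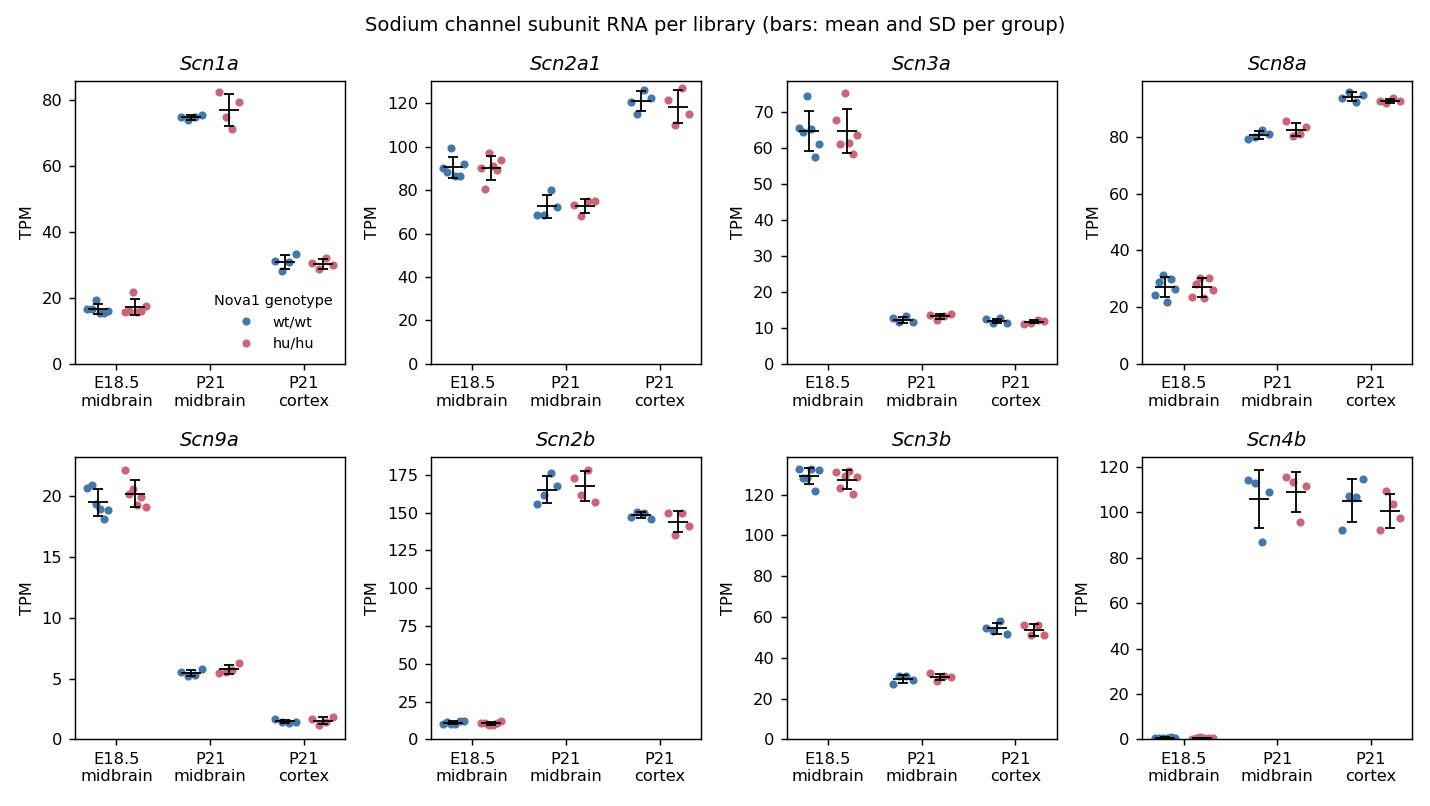
TPM of each member in each library (points), with the mean and SD of each group (bars), for midbrain at E18.5 and P21 and cortex at P21; blue is Nova1 wt/wt and red Nova1 hu/hu. The groups of 1 age and region overlap between genotypes for each member, while the midbrain libraries of the ages stand apart, by the least margin for Scn2a1 (80.6 against 80.3 TPM).

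Between E18.5 and P21 the 8 members of the midbrain split into 4 that rose, Scn1a, Scn8a, Scn2b and Scn4b, and 4 that fell, Scn2a1, Scn3a, Scn9a and Scn3b. Called here means p below 0.05 and adjusted p below 0.1 in edgeR's quasi-likelihood test on the deposited counts, both genotypes together, where 42.3% of all genes tested were called higher and 43.1% lower, so calls were common among all genes. By over 2-fold, 4 of the 8 members were higher, against 15.9% of all genes, and 3 of 8 were lower, against 14.7% of all genes. The members' median log2 fold change was 0.84 and that of all genes −0.015. The ages also differ in the cells present and were separate sets of libraries, so age cannot be told apart from a batch of libraries, and in bulk RNA fewer cells of a type cannot be told apart from less RNA per cell.

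Scn1a, the alpha subunit weighted toward inhibitory interneurons, rose. At E18.5 its lowest, median and highest TPM were 15.4, 16.2 and 19.4 in the 6 wt/wt libraries and 15.6, 15.97 and 21.8 in the 6 hu/hu libraries. At P21 the 4 wt/wt midbrain libraries had 74.8, 73.9, 74.9 and 75.5 TPM and the 4 hu/hu libraries 82.4, 74.7, 71.4 and 79.4. Every P21 library was above every E18.5 library. The edgeR quasi-likelihood fit gave a log2 fold change of 2.38 (standard error 0.049, Benjamini-Hochberg adjusted p = 2.04e-23), a 5.19-fold rise.

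Scn8a, the alpha subunit of mature initial segments and nodes, also rose. Its E18.5 values were 21.9, 27.5 and 31.3 TPM in wt/wt and 23.2, 27.2 and 30.4 in hu/hu libraries, given as lowest, median and highest. In P21 midbrain it stood at 79.4, 80.0, 82.6 and 81.0 TPM in wt/wt and 85.6, 80.5, 81.1 and 83.6 in hu/hu. The ages did not overlap and the P21 libraries lay close together. By edgeR's quasi-likelihood test the change was a log2 fold change of 1.80 (standard error 0.051, Benjamini-Hochberg adjusted p = 9.58e-21), or 3.49-fold.

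Scn2a1, the alpha subunit of immature axons and excitatory neurons, changed least. Its lowest, median and highest TPM at E18.5 were 86.3, 89.3 and 99.5 in wt/wt and 80.6, 90.6 and 97.1 in hu/hu libraries. The P21 midbrain values were 68.7, 68.5, 80.3 and 72.5 TPM in wt/wt and 72.9, 68.3, 75.2 and 75.0 in hu/hu. The ranges of the ages nearly met, with the lowest E18.5 library just above the highest P21 library. The edgeR quasi-likelihood estimate was a log2 fold change of −0.11 (standard error 0.041, Benjamini-Hochberg adjusted p = 0.0128). TPM divides by all transcripts of a library, whereas the fit scales by TMM (trimmed mean of M-values, a factor from genes that change little), and with library totals alone the median of all genes moved by −0.15, to −0.17, on the log2 scale and the Scn2a1 estimate to −0.27. In hu/hu libraries alone Scn2a1 was not called, with a log2 fold change of −0.086 and an adjusted p of 0.193 in the same edgeR test.

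Scn3a, the fetal alpha subunit, fell. At E18.5 its wt/wt libraries ran from 57.4 through a median of 64.8 to 74.2 TPM and its hu/hu libraries from 58.3 through 62.3 to 75.3. At P21 the midbrain had 12.7, 11.5, 13.2 and 11.5 TPM in wt/wt and 13.6, 12.1, 13.3 and 13.7 in hu/hu. All P21 libraries were far below all E18.5 libraries, and the edgeR quasi-likelihood estimate was a log2 fold change of −2.15 (standard error 0.052, Benjamini-Hochberg adjusted p = 5.61e-22), a 4.43-fold fall.

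Scn9a, best known from peripheral neurons, fell as well. The E18.5 TPM was 18.1 at the lowest, 19.2 at the median and 20.9 at the highest in wt/wt and 19.1, 20.1 and 22.2 in hu/hu libraries. In P21 midbrain the values were 5.51, 5.22, 5.28 and 5.78 TPM in wt/wt and 5.46, 5.58, 5.70 and 6.29 in hu/hu. The ages did not overlap. In edgeR's quasi-likelihood test the estimate was a log2 fold change of −1.62 (standard error 0.043, Benjamini-Hochberg adjusted p = 3.62e-21), a 3.08-fold fall.

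Among the beta subunits, Scn2b, which is linked to the alpha subunit by a disulfide bond, rose strongly. Lowest, median and highest TPM of Scn2b at E18.5 were 9.97, 11.01 and 12.2 in wt/wt and 9.53, 10.8 and 11.99 in hu/hu. At P21 the midbrain values of Scn2b were 155, 162, 176 and 167 TPM in wt/wt and 173, 162, 179 and 157 in hu/hu. All P21 libraries were above all E18.5 libraries by a wide gap. The change by edgeR's quasi-likelihood test was a log2 fold change of 4.14 (standard error 0.048, Benjamini-Hochberg adjusted p = 8.08e-28), or 17.6-fold.

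Scn4b, the beta subunit associated with resurgent sodium current in fast-firing neurons, was near the floor before birth. Its E18.5 libraries held between 9 and 36 counts each, and the lowest, median and highest TPM were 0.573, 0.750 and 1.0996 in wt/wt and 0.358, 0.626 and 0.916 in hu/hu. In P21 midbrain Scn4b reached 114, 113, 86.8 and 109 TPM in wt/wt and 115, 113, 95.8 and 112 in hu/hu. It thus went from the lowest of the members to the second highest. The edgeR quasi-likelihood estimate was a log2 fold change of 7.44 (standard error 0.088, Benjamini-Hochberg adjusted p = 8.08e-28), a 174-fold rise with a 95% interval of 7.26 to 7.62 on the log2 scale. In P21 midbrain, replicate 3 had the lowest Scn4b in each genotype. The same 2 libraries had the lowest cerebellar granule cell markers Gabra6 (0.208 TPM in wt/wt, 0.186 in hu/hu) and Cbln3 (0.651 and 0.700) of their genotype. They also had the lowest Pvalb (279.9 and 270.0). The Purkinje cell markers were mixed. Pcp2 was lowest in wt/wt replicate 3 (3.97 TPM) but highest of its genotype in hu/hu replicate 3 (4.25). Car8 was lowest in hu/hu replicate 3 (9.40) but not in wt/wt replicate 3 (10.4, against 10.2 in replicate 1). The hu/hu replicate 1, with the next lowest Gabra6 of its genotype (0.438 TPM), had the highest Scn4b (115 TPM). The part of these cells in the Scn4b level was not tested.

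Scn3b, a beta subunit that associates with the alpha subunit without a covalent bond, fell from the highest place. In wt/wt libraries of E18.5 its lowest, median and highest TPM were 122, 130.1 and 133, and in hu/hu libraries 120.2, 129 and 131. The P21 midbrain had 27.2, 30.9, 31.3 and 29.3 TPM in wt/wt and 32.6, 28.8, 30.9 and 30.5 in hu/hu. The ages did not overlap, and the edgeR quasi-likelihood estimate was a log2 fold change of −1.88 (standard error 0.040, Benjamini-Hochberg adjusted p = 3.63e-23), a 3.69-fold fall.

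Markers of other cell types moved with age in the same libraries. The 6 neuron markers split, with 3 called higher and 3 lower and summed levels of 3773 to 4306 TPM at E18.5 and 3771 to 4134 at P21, and none of them was at 0. Parvalbumin (Pvalb) RNA was at 2.92 to 7.31 TPM at E18.5 and 270.0 to 361 at P21. The 4 progenitor markers were all called lower, with 145 to 187 TPM in sum at E18.5 and 47.3 to 65.6 at P21, and the 4 oligodendrocyte markers all higher, as given above. Called higher were also 2 of 2 excitatory, 3 of 3 inhibitory, 3 of 3 dopamine and 4 of 4 hypothalamic neuron markers, 3 of 3 microglial, 3 of 4 astrocyte and 2 of 2 cerebellar granule cell markers. Called lower were 3 of 3 cortical projection neuron markers and 2 of 2 Purkinje cell markers, while the striatal neuron, oligodendrocyte precursor, endothelial and blood markers were split or held members that were not called. The part of these cells in the members' changes was not tested.

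**Figure D2:**
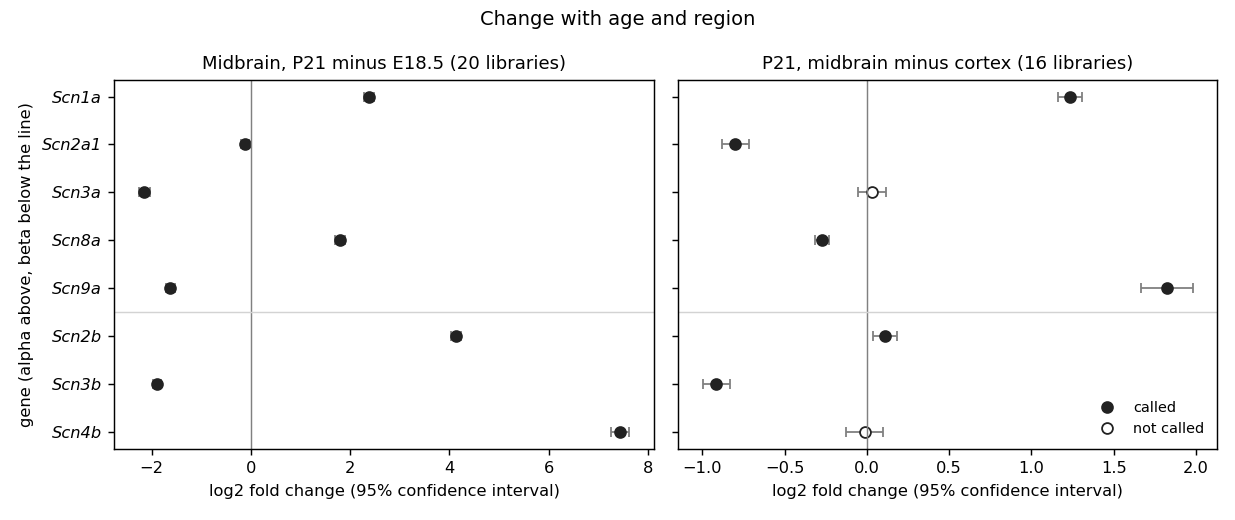
Log2 fold changes of the 8 members (points) with 95% confidence intervals (bars) from edgeR's quasi-likelihood test, for P21 against E18.5 midbrain and for P21 midbrain against P21 cortex. With age the members run from −2.15 for Scn3a to 7.44 for Scn4b, and between regions from −0.92 for Scn3b to 1.82 for Scn9a.

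The make-up of the alpha members changed more than their sum. The summed TPM of the 5 alpha members was 219 ± 12.9 (SD, n = 12) at E18.5, 249 ± 8.34 (n = 8) in the midbrain of P21 and 257 ± 7.83 (n = 8) in the cortex. Scn3a made up 29.5 ± 1.28% of that sum at E18.5, 5.10 ± 0.262% in the midbrain of P21 and 4.57 ± 0.193% in the cortex. Scn8a went the other way, with 12.4 ± 1.35%, 32.9 ± 0.423% and 36.4 ± 1.15% in the same order. Scn1a held its largest share in P21 midbrain, at 7.68 ± 0.450% before birth, 30.5 ± 0.944% there and 11.9 ± 0.418% in cortex. Scn2a1 held the largest alpha share in E18.5 midbrain, 41.4 ± 1.27%, and in P21 cortex, 46.6 ± 0.984%, but 29.2 ± 1.14% in P21 midbrain, where Scn8a was largest. Scn9a went from 9.10 ± 0.615% to 2.26 ± 0.129% in midbrain and was 0.584 ± 0.0825% in cortex. These shares describe the libraries and were not tested.

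The beta members had a higher sum at P21 and changed places. Their summed TPM was 139.8 ± 3.99 (SD, n = 12) at E18.5, 304 ± 8.14 (n = 8) in the midbrain of P21 and 303 ± 9.76 (n = 8) in the cortex. Scn3b alone was 91.7 ± 0.7995% of the sum at E18.5, 9.93 ± 0.472% in the midbrain of P21 and 17.8 ± 0.796% in the cortex. Scn2b held 7.77 ± 0.731%, 54.8 ± 2.85% and 48.3 ± 1.56%, and Scn4b 0.4995 ± 0.150%, 35.3 ± 3.16% and 33.9 ± 2.20%, in the same order. The ratio of Scn3b to Scn2b went from 11.9 ± 1.22 to 0.182 ± 0.00812 between the midbrain ages and was 0.369 ± 0.0117 in P21 cortex. Summed beta to summed alpha TPM went from 0.641 ± 0.0380 to 1.22 ± 0.0456 in midbrain and stood at 1.18 ± 0.0349 in cortex.

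**Figure D3:**
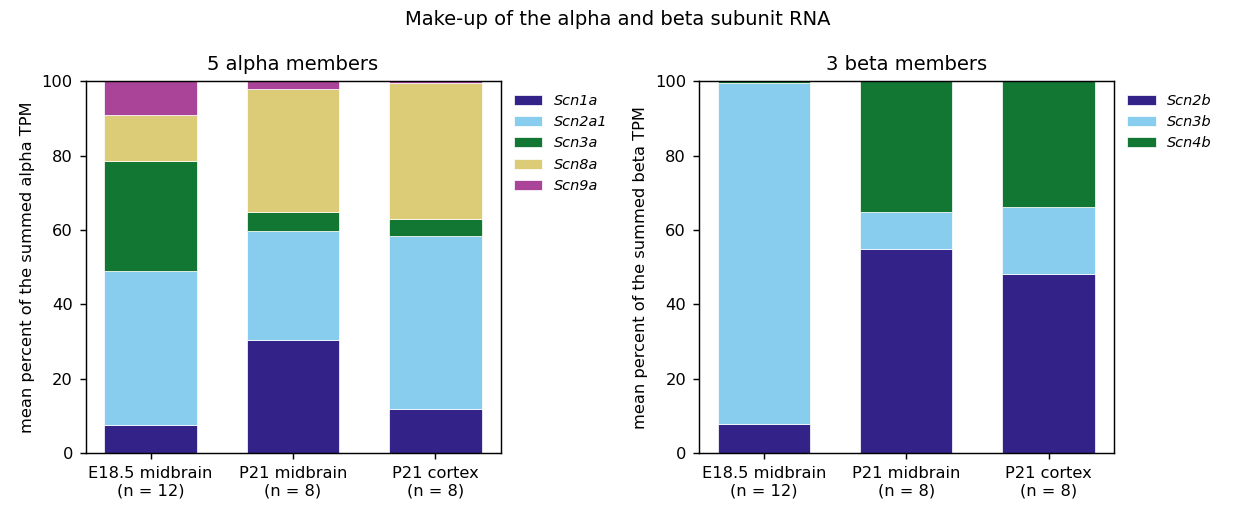
Share of each alpha member in the summed alpha TPM and of each beta member in the summed beta TPM (stacked means over libraries, in percent) for 12 embryonic midbrain, 8 P21 midbrain and 8 cortex libraries. Scn3a shrinks from 29.5% to 5.10% in midbrain while Scn1a and Scn8a grow, and among the beta members Scn3b gives way to Scn2b and Scn4b.

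Between P21 midbrain and P21 cortex, Scn1a, Scn9a and Scn2b were higher in midbrain, Scn2a1, Scn8a and Scn3b were higher in cortex, and Scn3a and Scn4b were not called. Of all genes tested, 37.9% were called higher in midbrain and 37.6% lower, against 3 and 3 of the 8 members. By over 2-fold, 2 members were higher in midbrain, against 7.82% of all genes, and 0 were lower, against 7.59% of all genes. The 16 libraries were made at 1 age, both genotypes together. The regions were separate sets of libraries too, so region cannot be told apart from a batch of libraries.

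Scn9a and Scn1a showed the largest regional differences. Scn9a had 1.67, 1.43, 1.37 and 1.42 TPM in wt/wt and 1.72, 1.16, 1.45 and 1.81 in hu/hu cortex, all below the P21 midbrain values given above. The edgeR quasi-likelihood estimate for midbrain against cortex was a log2 fold change of 1.82 (standard error 0.075, Benjamini-Hochberg adjusted p = 5.23e-16), a 3.54-fold difference. Scn1a had 31.1, 28.001, 31.0 and 33.3 TPM in wt/wt cortex and 30.6, 28.7, 32.1 and 29.8 in hu/hu cortex. Every midbrain library was above every cortex library, and edgeR's quasi-likelihood test gave a log2 fold change of 1.23 (standard error 0.035, Benjamini-Hochberg adjusted p = 4.82e-19), or 2.35-fold. Parvalbumin (Pvalb) RNA was at 270.0 to 361 TPM in P21 midbrain and 125 to 137 in cortex. Of the inhibitory neuron markers, 2 of 3 were called higher in midbrain, with summed levels of 354 to 379 and 299 to 327 TPM. Their part in the Scn1a difference was not tested.

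Scn2a1, Scn3b and Scn8a were higher in cortex. Scn2a1 had 121, 115, 126 and 123 TPM in the wt/wt and 122, 110.1, 127 and 115 in the hu/hu cortex libraries, without overlap with midbrain, and edgeR's quasi-likelihood test gave a log2 fold change of −0.80 (standard error 0.039, Benjamini-Hochberg adjusted p = 1.05e-14) for midbrain against cortex. Scn3b had 54.5, 53.3, 58.1 and 51.8 TPM in wt/wt and 56.3, 51.2, 55.9 and 51.0 in hu/hu cortex, again without overlap, and the estimate by edgeR's quasi-likelihood test was a log2 fold change of −0.92 (standard error 0.040, Benjamini-Hochberg adjusted p = 1.39e-15). Scn8a had 93.9, 96.1, 92.4 and 94.98 TPM in wt/wt and 92.7, 92.3, 93.9 and 92.9 in hu/hu cortex. Its regional difference was small against the others but exceeded the spread of the libraries, and edgeR's quasi-likelihood test gave a log2 fold change of −0.27 (standard error 0.022, Benjamini-Hochberg adjusted p = 9.31e-11). The 2 excitatory neuron markers parted, 1 called higher and 1 lower in midbrain, with summed levels of 326 to 362 TPM in P21 midbrain and 1699.8 to 1886 in cortex, and 5 of 6 neuron markers were called lower in midbrain, at 3771 to 4134 against 4386 to 4726 TPM. Their part in these differences was not tested.

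Scn2b, Scn3a and Scn4b differed little between the regions. Scn2b had 147, 150.4, 150.1 and 146 TPM in wt/wt and 150.0, 135, 149.8 and 141 in hu/hu cortex, all below the midbrain libraries, and edgeR's quasi-likelihood test gave a log2 fold change of 0.11 (standard error 0.035, Benjamini-Hochberg adjusted p = 0.00683). In wt/wt libraries alone Scn2b was not called, with an adjusted p of 0.126 in the edgeR test. Scn3a had 12.3, 11.2, 12.6 and 11.4 TPM in wt/wt and 11.1, 11.4, 12.01 and 11.99 in hu/hu cortex, overlapping with midbrain, and its log2 fold change was 0.032 with a 95% interval of −0.051 to 0.11 (edgeR's quasi-likelihood test, adjusted p = 0.483). Scn4b had 92.0, 107, 106 and 115 TPM in wt/wt and 92.1, 109, 104 and 97.2 in hu/hu cortex. Its ranges in the regions overlapped, and the log2 fold change was −0.014 with a 95% interval of −0.13 to 0.098 (adjusted p = 0.827 in the edgeR test), with a sign that turned in hu/hu libraries alone, to 0.035. The cortex libraries held the striatal neuron markers listed above, 4 of 4 of which were called lower in midbrain, and Scn4b is known to be abundant in striatal projection neurons, but the part of striatal tissue in the cortex level was not tested. Of the remaining markers, 4 of 4 oligodendrocyte, 3 of 4 astrocyte, 2 of 2 oligodendrocyte precursor, 2 of 2 cerebellar granule cell, 3 of 3 dopamine and 4 of 4 hypothalamic neuron markers were called higher in midbrain. Called lower there were 3 of 3 microglial and 3 of 3 cortical projection neuron markers, while the endothelial, blood, Purkinje cell and progenitor markers were split or held members that were not called.

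No member was called with Nova1 genotype in any of the 3 comparisons of hu/hu with wt/wt. For the embryonic midbrain, the P21 midbrain and the cortex, in this order, edgeR's quasi-likelihood test called 0 of 8 members and 0% of the 15540, 15972 and 15767 genes tested. The unadjusted p was below 0.05 for 201, 426 and 450 genes, none of them a member. Each count was below a share of 0.05 of the genes tested, which calibrated p values give on average by chance alone. The unadjusted p values of this fit thus ran high, and its 95% intervals may be wide for their level. The cause was not tested. DESeq2 called 0, 1 and 0 genes. When samples were paired through a block on their replicate number, 4 genes were called in P21 midbrain and 0 in the others, again with 0 members. For gene levels the study, with edgeR at the same thresholds, reported only Gkn3, which is not a member, as lower in hu/hu P21 midbrain. The study also reported changes of alternative splicing in hu/hu P21 midbrain. Counts per gene do not measure splicing, and the splicing of the members was not examined here. A missed threshold does not show that the levels were equal, and the intervals bound what was measurable. The whole 95% interval of the fold change lay within 1.3-fold in either direction for 7 of 8 members in E18.5 midbrain and for 8 of 8 in both P21 tissues. The exception was Scn4b in E18.5 midbrain, where counts were few and the log2 fold change was −0.26 with a 95% interval of −0.77 to 0.25.

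The estimates themselves were small. Without Scn4b, those in E18.5 midbrain ran from −0.055 to 0.047 on the log2 scale. In P21 midbrain all 8 estimates were above 0, while 6 of 8 were below 0 in E18.5 midbrain and 7 of 8 in P21 cortex, and the members share libraries and scaling factors, so these directions are not independent of each other. The lowest p of any member was that of Scn3a in P21 midbrain, with a log2 fold change of 0.12, a 95% interval of −0.0055 to 0.24, an unadjusted p of 0.0600 and an adjusted p of 0.99996 in the edgeR test. With the replicate block its adjusted p was 0.999. The Scn3a values overlapped between the genotypes in all 3 tissues. Within pairs of the same replicate number in P21 midbrain, the TPM of Scn3a and of Scn4b was higher in hu/hu in 4 of 4 pairs, as it was for 5.22% of the 12622 genes with a mean of at least 5 TPM. No other member had the same direction in every pair of a tissue. With the block, the adjusted p of Scn4b there was also 0.999 in the edgeR test.

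Tests of whether the genotype effect differed between ages or between regions called 0 of 8 members and 0% of the 16330 and 16345 genes tested by edgeR's quasi-likelihood test, with 303 and 373 genes at an unadjusted p below 0.05. These counts were also below a share of 0.05 of the genes tested. DESeq2 was not run on these differences of genotype effects. The members' differences of log2 fold changes ran from 0.011 to 0.29 for age and from 0.030 to 0.15 for region, all above 0 in both. Both contrasts use the same P21 midbrain libraries.

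**Figure D4:**
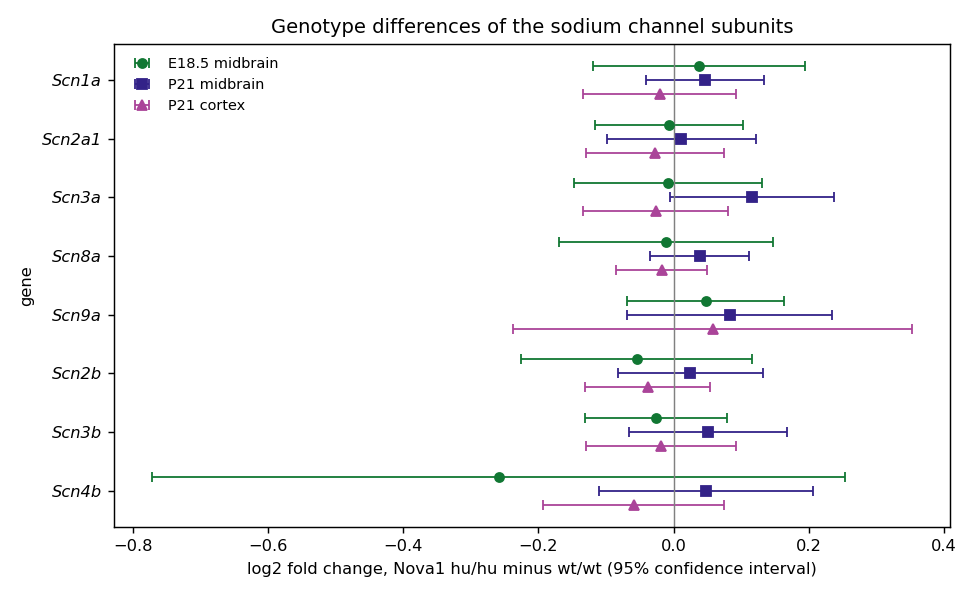
Log2 fold changes of the members in Nova1 hu/hu against wt/wt (points) with 95% confidence intervals (bars) from edgeR's quasi-likelihood test, at E18.5 and P21 in midbrain and at P21 in cortex. Every interval includes 0, and the widest is that of Scn4b in E18.5 midbrain.

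The other genes of sodium channel biology were followed by lists. Of 9 other sodium channel and NALCN leak channel genes, 7 passed the filter in the age comparison, 5 called higher and 2 lower, with a median log2 fold change of 0.30 against −0.015 over all genes, of which 42.3% were called higher and 43.1% lower. Unc80, a scaffold of the NALCN channel, rose by 2.26 (standard error 0.056) on the log2 scale, and Scn7a, the sodium-sensing channel of glia, by 1.52 (standard error 0.097). Scn11a, a channel of sensory neurons, changed by −0.93 (standard error 0.28) at 0.527 TPM in E18.5 and 0.244 TPM in P21 midbrain. Between regions, 8 of these genes were tested, 3 called higher and 3 lower in midbrain, with a median of 0.25 against 0.00036 over all genes, of which 37.9% were called higher and 37.6% lower. The 4 with the largest called differences in log2 were Scn10a at −2.93, whose level was 0.0223 TPM in midbrain and 0.180 in cortex, Scn7a at 0.89, Unc80 at 0.52 and Unc79 at −0.40.

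The 4 FGF homologous factors, which bind the alpha subunits inside the cell and alter their inactivation, split with age, 2 called higher and 2 lower (42.3% and 43.1% over all genes). Fgf12 and Fgf11 rose by 1.36 (standard error 0.032) and 0.57 (standard error 0.091) on the log2 scale, while Fgf13 and Fgf14 changed by −0.49 (standard error 0.039) and −0.39 (standard error 0.053), with a list median of 0.087 against −0.015 over all genes. Between regions 0 were called higher in midbrain and 2 lower, Fgf13 at −0.80 and Fgf14 at −0.56 (37.9% and 37.6% over all genes), with a median of −0.32 against 0.00036.

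Of 12 genes of the axon initial segment and node scaffold, 8 were called higher and 3 lower with age (42.3% and 43.1% over all genes), with a median of 0.22 against −0.015. Cntnap1 and Nfasc, which build the junction beside the node, rose by 3.02 (standard error 0.12) and 2.82 (standard error 0.047), in libraries where the oligodendrocyte markers rose too, whose part was not tested. Cntn1, their partner at the axon, rose by 0.82 (standard error 0.054), and Trim46, which orders microtubules at the initial segment, changed by −1.22 (standard error 0.046). In the regional comparison 6 were called higher and 6 lower in midbrain (37.9% and 37.6% over all genes), with a median of −0.025 against 0.00036, led by Nfasc at 1.26, Trim46 at −1.07, Cntnap2 at 0.61 and Cntn1 at 0.44.

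Of 10 genes known to act on sodium channel RNA or protein, 2 were called higher and 7 lower with age (42.3% and 43.1% over all genes), with a median of −0.50 against −0.015. The splicing regulators Rbfox2, Nova2 and Nova1 changed by −1.12 (standard error 0.033), −1.07 (standard error 0.040) and −1.04 (standard error 0.055), all lower at P21. Bace1, a secretase that cleaves beta subunits, rose by 0.81 (standard error 0.029). Between regions 3 were called higher in midbrain and 7 lower (37.9% and 37.6% over all genes), with a median of −0.41 against 0.00036. Rbfox3 at −1.53, Nova2 at −1.06 and Rbfox1 at −0.9996 were lower in midbrain and Nova1 at 0.93 was higher. Rbfox3 is also on the list of neuron markers. In each genotype comparison and in each of these 4 lists, 0 genes were called, Nova1 itself included.

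**Figure D5:**
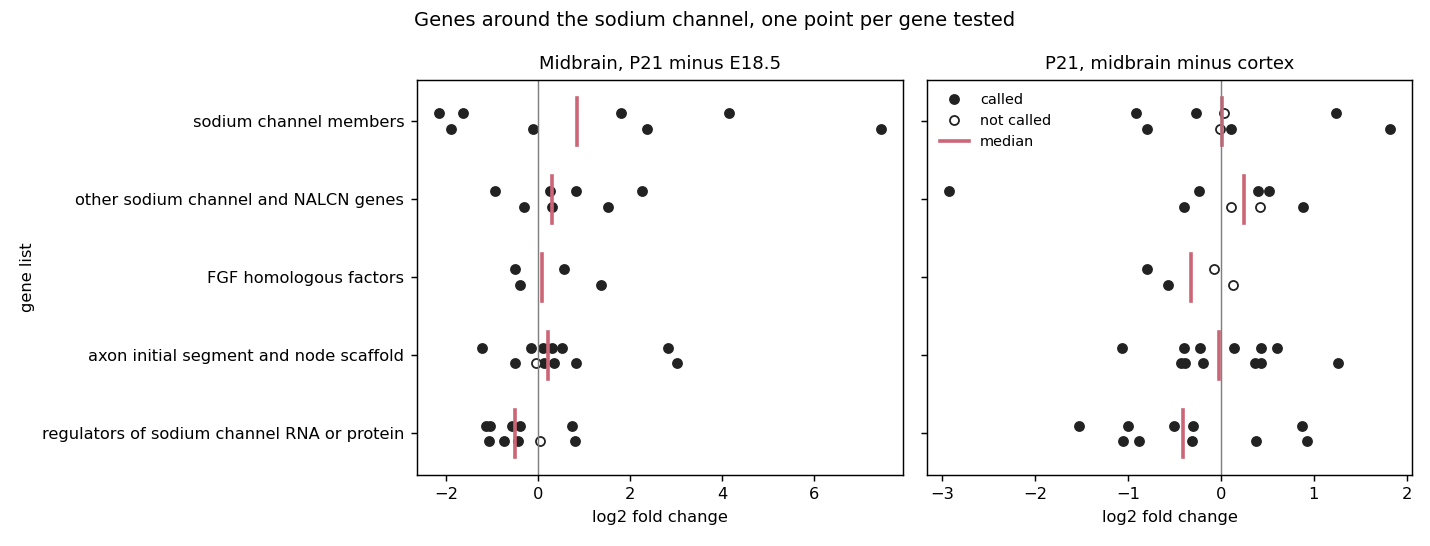
Log2 fold changes (points, 1 per tested gene; filled where called) of the members and of the 4 lists of related genes, for P21 against E18.5 midbrain and for P21 midbrain against P21 cortex, with each list's median (bar). With age the FGF homologous factors spread from −0.49 to 1.36 and the members from −2.15 to 7.44.

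For each member, the genes with the most similar pattern of log2(TPM + 1) were listed by Pearson's r over 28 libraries, among 12622 genes with a mean of at least 5 TPM. The libraries fall into 3 sets by age and region, so these r values, from 0.979 to 0.999, follow mainly the levels of those sets. Among the nearest 3 were Gpld1, Vamp1 and B3galt5 for Scn1a, Eef1a2, Slc6a17 and Purb for Scn8a, Opcml, Ywhaz and St8sia3 for Scn2a1, Whsc1 and Ccdc88a for Scn3a and Rnf152, AW551984 and Lhx9 for Scn9a. For the beta members they were Slc24a2, Tppp and Scn4b for Scn2b, Bcl2l2, Snap25 and Vsnl1 for Scn4b and Hn1, Mtap9 and Prkar2b for Scn3b. Scn4b was among the nearest 3 of Scn2b, its neighbour on chromosome 9, but not with a pseudocount of 0.1 in place of 1.

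With the mean of each of the 6 groups taken off, which leaves the spread among libraries of 1 group, the r of the nearest genes ran from 0.674 to 0.946 over 28 libraries. The nearest were Celsr2 (0.946), Kcnt1 (0.944) and Cacna1a (0.940) for Scn8a and Wdr26 (0.915), Ubr3 (0.877) and Pdpr (0.846) for Scn1a, with r in brackets. Among the nearest 3 of Scn3a were Taok1 (0.872) and Taf1 (0.837), and those of Scn2a1 were Opcml (0.871), Cadm2 (0.833) and Adam22. For Scn9a, Scn2b, Scn3b and Scn4b the first was Alg11, Dpysl2, Azin1 and Spry2. With a pseudocount of 0.1 another gene came first for Scn9a, Scn3b and Scn4b, as it did for Scn3b among genes with a mean of at least 1 TPM. Among the 28 pairs of members, the highest r of these deviations was 0.677, between Scn1a and Scn3a, then 0.621 between Scn2a1 and Scn3a and 0.592 between Scn1a and Scn2a1, and the lowest was −0.44, between Scn9a and Scn4b. Scn1a, Scn2a1 and Scn3a share exact coding runs, as given above, and the part of shared reads in their r was not tested. The points share library depth and composition, and the r values are a description without a test.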

How the data were processed

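Polyadenylated RNA of 28 mouse brain libraries was sequenced. The authors used OLego for alignment to mm10 and Quantas for counting, and deposited expected counts per gene, which need not be whole, with exon lengths, and RPKM values scaled by the authors to those lengths and the summed counts. The annotation version, the handling of strand and that of reads matching several genes are not given in the sources used here. TPM was taken from unrounded counts over exon length. Rounded counts were tested with edgeR 4.0.16 in R 4.3.3 (filterByExpr, TMM factors, quasi-likelihood test, Benjamini-Hochberg adjustment over all genes, called at p below 0.05 and adjusted p below 0.1), with DESeq2 1.42.0, other factors and filters, the replicate number as a block and each library left out as alternatives. The scripts were tested on simulated data. All members were named in each comparison, and from each of 4 lists of related genes up to 4 called genes with the largest change. Some genes are not reported here. The members and lists were chosen with earlier results of these data known. Likeness was measured on log2(TPM + 1). What the replicate numbers mark is not given in the sources used here, and taking them to pair hu/hu with wt/wt libraries is an inference. Deviations of same-numbered libraries from the group means correlated at 0.201 to 0.235 in midbrain and 0.170 to 0.246 in cortex of P21. In the embryonic midbrain these correlations were 0.171 to 0.391. The medians of the other pairs were −0.094, −0.109 and −0.073 in the same order. Intervals are at 95%. Cerebellum was not analysed here.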

Additional observations from a re-analysis of the deposited data

Results flagged for a closer look

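Of 48 sets tested, the values of 1 member in 1 group of 4 or 6 libraries, 2 held a library far from the others, and chance gives about 1 in 20. Both were Scn1a in E18.5 midbrain, where replicate 3 was highest in each genotype. Its TPM was 21.8 in the hu/hu group, whose other libraries ran from 15.6 to 17.4, and 19.4 in the wt/wt group, whose other libraries ran from 15.4 to 16.7. The same libraries also had the highest Scn2a1 (97.1 and 99.5 TPM) and Scn3a (75.3 and 74.2 TPM) of their groups.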

How the results depend on the processing

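The calls of the age comparison did not change under other scaling factors, filters, tools or with any 1 library left out, except Scn2a1 in hu/hu libraries alone (−0.086, adjusted p = 0.193 in the edgeR test), and Scn4b, which could not be tested with at least 10 counts required in every library of E18.5 midbrain. Between regions Scn2b lost its call in wt/wt libraries alone (0.078, adjusted p = 0.126). Members that were not called changed sign under some alternatives. With library totals alone the log2 fold change for genotype was 0.016 for Scn2a1, 0.016 for Scn3a and 0.011 for Scn8a in E18.5 midbrain and −0.011 for Scn2a1 in P21 midbrain, and for region 0.0031 for Scn4b. For region, Scn3a was −0.041 in wt/wt libraries alone and Scn4b 0.035 in hu/hu libraries alone. The cause of these sign changes was not tested. Leaving out each library in turn gave ranges across 0 for genotype in E18.5 midbrain (Scn1a −0.030 to 0.078, Scn2a1 −0.023 to 0.029, Scn3a −0.044 to 0.025, Scn8a −0.058 to 0.024), P21 midbrain (Scn2a1 −0.017 to 0.066, Scn2b −0.011 to 0.060, Scn4b −0.033 to 0.10) and P21 cortex (Scn1a −0.066 to 0.012, Scn2a1 −0.065 to 0.0066, Scn3a −0.054 to 0.010, Scn3b −0.049 to 0.023, Scn9a −0.024 to 0.17), for the difference of genotype effects between ages (Scn1a −0.028 to 0.082, Scn2a1 −0.014 to 0.076, Scn9a −0.0034 to 0.075) and regions (Scn9a −0.086 to 0.11), and for region (Scn4b −0.043 to 0.027). In E18.5 midbrain Scn1a turned sign only without hu/hu replicate 3. Over all genes, 0 were called for genotype in P21 midbrain, against 1 with DESeq2. With the replicate block it was 4, and 0 members were called in any genotype comparison. Between regions, deviations of same-numbered libraries correlated at −0.20 to −0.10, against medians of 0.109 in hu/hu and 0.0838 in wt/wt for the other pairs. Whether both regions came from the same animals is not given in the sources used here. With the replicate block 12296 genes were called between regions against 12337, with 6 members called in both. The replicate block changed no other call. RPKM in place of TPM left each share within a library as it was, and the ratio of summed beta levels in P21 midbrain to P21 cortex was 1.003 in TPM and 0.963 in RPKM. Of the 24 nearest genes, 20 and 24 were kept over libraries, and 19 and 21 over deviations, with a pseudocount of 0.1 and with a mean of at least 1 TPM. Scn4b in E18.5 midbrain, with 9 to 36 counts per library, is the member whose depth limits what can be seen.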
